A study of Mus musculus and Homo sapiens with 83 samples.

Results

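The last interval of an undirected differentiation of mouse embryonic stem cells (mESCs) was examined by setting the single-cell RNA counts of day 9 against those of day 6. The 5 cells titled as day 9 and the 6 cells titled as day 6 were taken by their titles, which gave 11 of the 83 samples of the series and 11 of its 42 RNA libraries. Both groups were E14 cells of 129/Ola background that had grown on MEF feeders with leukemia inhibitory factor (LIF) and were then replated on gelatin, without feeders and without LIF, for 9 days or for 6 days. Each library held the polyadenylated RNA of the cytoplasm of 1 cell, which was drawn off while the nucleus was kept for DNA work (AMAR-seq, with an RNA protocol based on smart-seq2). The labels name no separate dish, batch or culture for the cells, so each day counts as 1 sample. Differences are therefore given as sizes with their spread over cells, without a test between days, and intervals cover counting error only.

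mESCs are held in an undifferentiated state by LIF together with the transcription factors Pou5f1, Sox2 and Nanog. When LIF is withdrawn, the cells pass through a formative state marked by Otx2 and de novo DNA methyltransferases, and then take up lineage programmes such as those of the primitive streak, the endoderm, or the extraembryonic tissues. In an undirected culture neighbouring cells can do so at different times and in different directions, so a day is a mixture of cells.

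Levels are given as CPM, the counts of a gene in every 1000000 gene reads. They are not corrected for gene length and are compared between cells, not between genes. The ratio of the days used reads summed over the cells of a day, was taken as log2 of (CPM + 1) at day 9 over that at day 6, and had the median gene set to 0 (a shift of 0.11). This relative log2 ratio was computed for the 16070 genes that had 20 or more reads in the 11 cells together, in 2 cells or more. A gene was counted as higher or lower when it was past 2-fold on this scale. It was counted as holding when it stayed past 2-fold without any 1 of the 11 cells, and as resting on a cell when leaving out that cell brought it inside 2-fold.

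The day 9 libraries held 3913595 to 9656797 gene reads and the day 6 libraries 8894830 to 16367029. A single feature, CT010467.1, which was handled as ribosomal RNA and left out of the totals, took 13.0% to 73.1% of gene reads in day 9 cells and 19.4% to 47.1% in day 6 cells. Day 9 cell 1 had the highest share, so it gave only 4.06% of the summed day 9 reads, while day 9 cell 3 gave 30.7%. At an equal depth of 1000000 reads, day 9 cells 1 to 5 showed 17016, 13997, 8867, 9612 and 12151 genes, and day 6 cells 7665 to 11634. Of the markers of mESCs, Pou5f1, Nanog, Esrrb and Zfp42 had reads in all 11 cells. Sox2, which lies inside another annotated transcript, had 0 reads in all 11 cells, so its level was not read here. The defining markers of the feeder fibroblasts were low in summed reads: Col1a1 had 0.965 CPM at day 9 and 2.33 CPM at day 6, Col1a2 0.309 and 0.404 CPM, Col3a1 0.193 and 0.135 CPM, and Postn had no read in either day. In single cells Col1a1 reached 3.03 CPM at day 9 and 14.6 CPM at day 6, where 4 cells had 0 CPM. Thy1, which other cells also express, had 16.36 and 30.8 CPM.

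At day 9, 3802 of the 16070 genes (23.7%) were higher past 2-fold and 3505 (21.8%) were lower. Of the higher genes, 1422 held without any 1 cell, which is 8.85% of all genes and 37.4% of the higher ones. Of the lower genes, 1240 held, which is 7.72% of all genes and 35.4% of the lower ones. Every day 9 cell lay above every day 6 cell for 186 genes (1.16%) and below for 33 genes (0.205%). Separation is easier with fewer cells: without day 9 cells 3 and 4 and day 6 cell 6, each left out in turn, the first count was 434, 328 and 286. The second count was 52, 61, 75, 56 and 74 without day 9 cells 1 to 5, and 90, 50 and 56 without day 6 cells 3, 5 and 6, each left out in turn. With all cells and DESeq2 size factors in place of CPM, the first count was 130 and the second 95.

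Many of the genes that were higher at day 9 rested on 1 day 9 cell. Of the 3802 higher genes, 2338 (61.5%) came inside 2-fold when 1 day 9 cell or another was left out, and for 2163 of them exactly 1 day 9 cell had this effect. Day 9 cell 3 ended 883 of them, cell 2 ended 597, cell 4 ended 552, cell 5 ended 287 and cell 1 ended 206. Of the 3505 genes lower at day 9, 933 (26.6%) ended without some 1 day 9 cell and 2166 ended without some 1 day 6 cell. Summed reads weight each cell by its reads. Cell 3, with 30.7% of the day 9 reads, ended the most higher genes and cell 1, with 4.06%, the fewest. Cell 5, with 25.5%, ended fewer than cell 2, with 16.9%. The part of depth in these counts was not tested. When each day was the median of its cells, not their sum, 3595 genes were higher and 1354 of them ended without some 1 day 9 cell, and with a pseudocount of 0.1 CPM the numbers were 4786 and 2267. With every cell weighted equally, cell 1 ended 852 of the higher genes, cell 3 ended 555, cell 2 ended 517, cell 4 ended 426 and cell 5 ended 175. Among genes of at least 20 CPM on the higher day, 768 of 1495 higher genes (51.4%) and 456 of 1333 lower genes (34.2%) ended without some 1 day 9 cell.

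**Figure D1:**
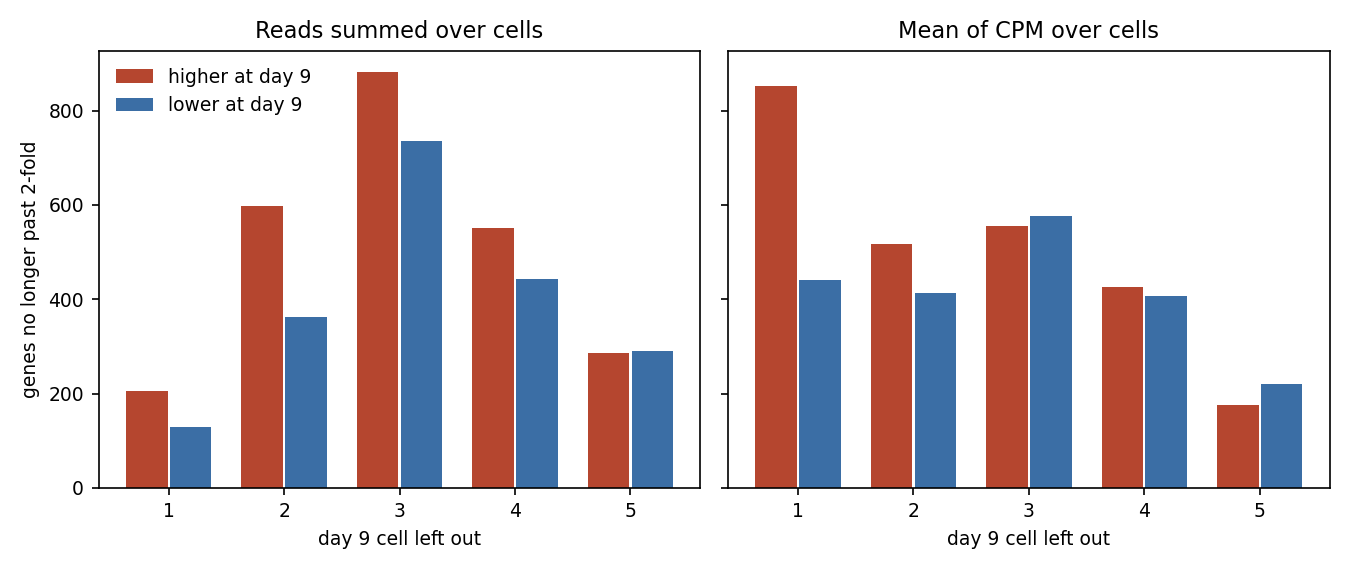
Number of genes past 2-fold with all cells that came inside 2-fold when the day 9 cell on the x axis was left out, for genes higher (red) and lower (blue) at day 9. With reads summed over cells (left) cell 3 ended the most higher genes, 883, and with the mean of CPM over cells (right) cell 1 did, with 852.

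The cells of a day were not alike. The median Pearson correlation of log2(CPM + 1) over the 16070 genes was 0.67 between pairs of day 9 cells, 0.66 between pairs of day 6 cells and 0.63 between the days. Day 9 cell 3 had the lowest median with the other day 9 cells (0.60), and day 9 cell 5 the highest (0.71). Day 9 cell 5 was as close to the day 6 cells, with a median of 0.72. These coefficients are across genes, which are not independent replicates, and they share the depth and gene number of each library.

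The genes named here had every day 9 cell above every day 6 cell, and the highest relative log2 ratios among them were those of Pmp22 (6.91), Cited1 (6.83), Epb41l3 (6.60), Fxyd2 (6.27), Nrk (6.20) and Phf12 (5.75). Epb41l3, a protein that links the membrane to the cytoskeleton, had 38.9, 5.92, 357, 1.69 and 2.73 CPM in day 9 cells 1 to 5, against at most 0.313 CPM in a day 6 cell, and Phf12, a chromatin-binding corepressor, had 28.5, 3.42, 281, 63.1 and 10.3 CPM, against at most 3.12 CPM. Both were highest in day 9 cell 3. Pmp22, a small membrane protein best known from peripheral myelin, had 188, 277, 88.3, 32.5 and 154 CPM in day 9 cells 1 to 5, against 0 CPM in all 6 day 6 cells. It lies on chromosome 11 at 63128982 to 63159547 (GRCm38.p6). Its summed level was 128 CPM at day 9, at least 1906.5-fold above the level that 3 reads over the whole of day 6 would give. Fxyd2, a regulator of the sodium pump, had 68.4, 165, 104, 36.7 and 44.2 CPM at day 9, against 0 CPM in all day 6 cells. Both genes were read in every day 9 cell. Neither rested on any one of them, which the rule that named them required.

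Cited1, a transcriptional coregulator expressed in trophectoderm derivatives, had 61.7, 29.8, 261, 581 and 213 CPM in the day 9 cells, against 0 CPM in 5 day 6 cells and 7.85 CPM in cell 6. Its ratio of summed levels was 222-fold (95% interval 171 to 295) and its relative log2 ratio was 6.83, or 6.30 without the cell that mattered most. Nrk, a kinase of the placenta, had 14.2, 110.1, 41.2, 158 and 47.7 CPM at day 9, against a single read in day 6 (cell 5). That single read makes the fold uncertain, with a ratio of 3567 and an interval of 639.5 to 140963. Peg10, a retrotransposon-derived imprinted gene required for placenta formation, had 169, 366, 234, 337 and 76.2 CPM at day 9, against 44.2, 0, 0, 0.232, 0 and 30.7 CPM at day 6. The lowest day 9 cell thus stood above the highest day 6 cell for each of Cited1, Nrk and Peg10. Cited1 and Peg10 had been named for this.

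H19, an imprinted growth-restraining long noncoding RNA, had 1144, 3058, 182, 505 and 736 CPM at day 9, against 24.4, 11.6, 0, 0, 70.5 and 5.71 CPM at day 6. The ratio was 48.4-fold (45.2 to 51.9). Lama1, the laminin chain of early basement membranes, had 1544, 346, 166, 503 and 66.5 CPM at day 9, against 7.74, 2.03, 3.73, 0.348, 13.2 and 0.143 CPM at day 6, a ratio of 65.7-fold (57.2 to 75.8). The day 9 cells ranged widely for both genes, but no day 9 cell came down to the highest day 6 cell, which the rule that named them required. Anxa5, a membrane-binding annexin, had 61.7, 113, 195, 47.9 and 149 CPM at day 9, against 23.3 CPM in day 6 cell 5, 14.8 CPM in cell 6 and 0 CPM in the rest.

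In the other direction, the day 9 cells lay below all day 6 cells for Pla2g10, a secreted phospholipase, which had 37.98, 3.19, 0, 5.42 and 4.39 CPM at day 9, against 41.2, 57.9, 40.6, 436, 283 and 118 CPM at day 6. Day 9 cell 1 came close to the lowest day 6 cells, and the other 4 did not. Notch1, a receptor of cell-to-cell signalling, had 13.3, 22.1, 0, 0.677 and 4.24 CPM at day 9, against 73.4, 254, 31.1, 36.9, 71.5 and 34.0 CPM at day 6. Smc1b, a meiotic cohesin subunit, had 8.55, 2.05, 3.77, 0 and 30.6 CPM at day 9, against 49.0, 44.7, 48.0, 90.9, 115 and 53.2 CPM at day 6. Cd164l2, Shld2 and Tnnt1 were the other genes named by the same rule, with summed levels of 0.656, 5.17 and 4.21 CPM at day 9 and 37.5, 55.4 and 68.9 CPM at day 6.

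**Figure D2:**
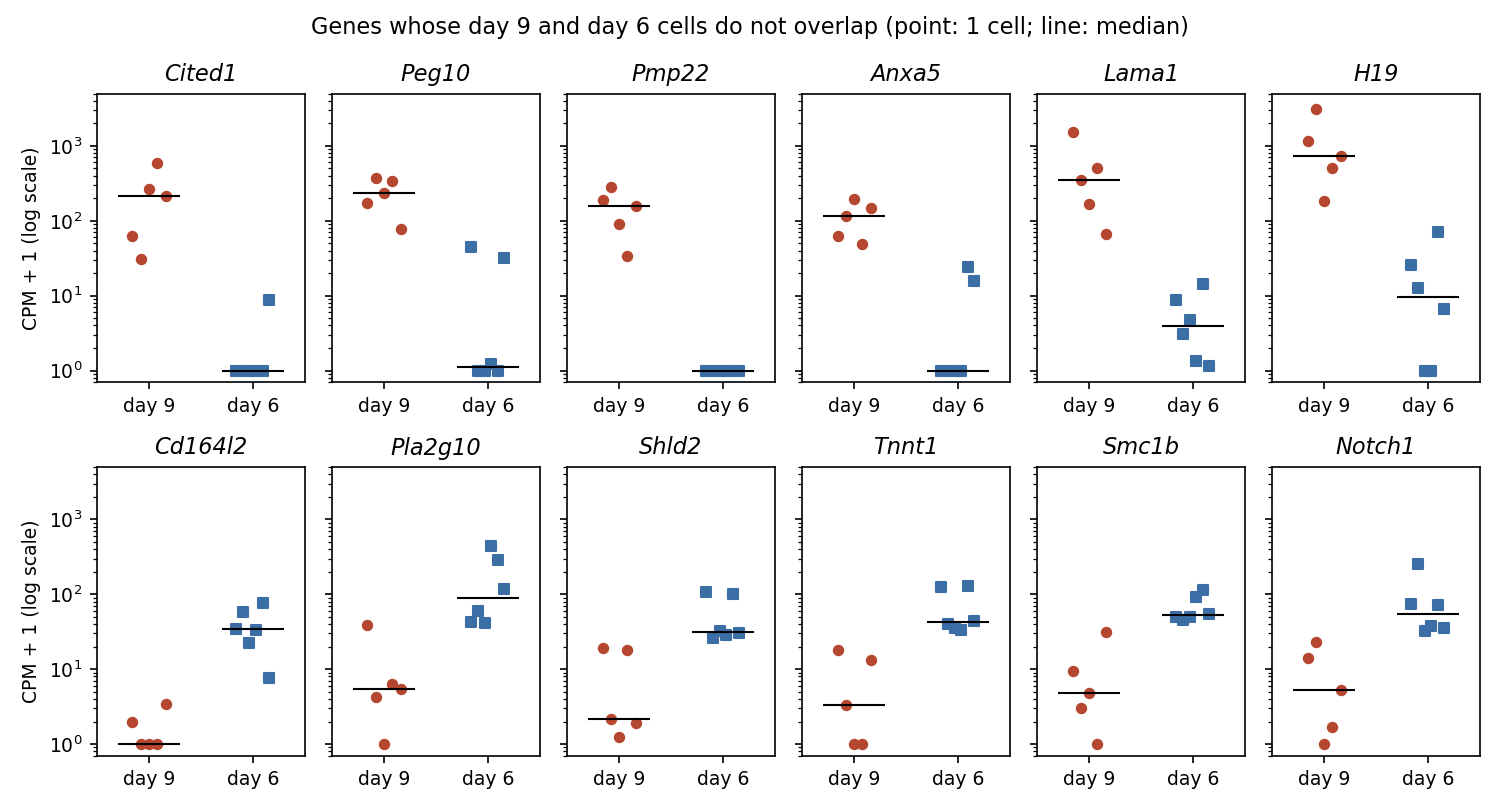
CPM + 1 (log scale) of each of the 5 day 9 cells (red circles) and 6 day 6 cells (blue squares), with the line at the median of the cells, for 6 genes in which all day 9 cells were above and 6 in which all were below day 6. Pmp22 was at 0 CPM in every day 6 cell and between 32.5 and 277 CPM at day 9.

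The promoters of 4 genes are shown because these genes stand for the kinds of difference seen: Pmp22 and Cited1 were higher in every day 9 cell, Pla2g10 was lower in every day 9 cell, and Usp17lb was high mainly in day 9 cell 3. Each sequence runs from 250 bases before the gene start to 50 after it, 5′ to 3′ on the gene's own strand, from RefSeq (GRCm38.p6). Pmp22 and Cited1 have several entries, and the one nearest to the annotated gene start is shown. Capitals mark, on either strand, the letters of a TATA box (TATAAA), those of a GC box (GGGCGG) and those of a CCAAT box (CCAAT).
Pmp22: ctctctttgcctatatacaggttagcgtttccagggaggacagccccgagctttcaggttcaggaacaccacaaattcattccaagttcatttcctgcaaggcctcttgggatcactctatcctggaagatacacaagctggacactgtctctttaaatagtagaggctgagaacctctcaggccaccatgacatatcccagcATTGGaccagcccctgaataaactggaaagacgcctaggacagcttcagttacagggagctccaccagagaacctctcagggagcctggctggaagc
Cited1: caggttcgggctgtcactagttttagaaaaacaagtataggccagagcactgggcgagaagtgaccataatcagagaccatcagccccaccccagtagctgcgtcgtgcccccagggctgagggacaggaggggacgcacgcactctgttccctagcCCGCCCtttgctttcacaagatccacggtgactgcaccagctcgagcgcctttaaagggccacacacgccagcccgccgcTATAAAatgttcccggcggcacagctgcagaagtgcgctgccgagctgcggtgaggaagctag
Pla2g10: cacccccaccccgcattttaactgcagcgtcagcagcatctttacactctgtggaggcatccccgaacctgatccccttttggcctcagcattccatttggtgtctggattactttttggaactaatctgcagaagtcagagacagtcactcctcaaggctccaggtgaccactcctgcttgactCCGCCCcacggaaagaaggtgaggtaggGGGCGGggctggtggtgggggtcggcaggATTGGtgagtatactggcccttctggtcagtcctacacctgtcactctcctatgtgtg
Usp17lb: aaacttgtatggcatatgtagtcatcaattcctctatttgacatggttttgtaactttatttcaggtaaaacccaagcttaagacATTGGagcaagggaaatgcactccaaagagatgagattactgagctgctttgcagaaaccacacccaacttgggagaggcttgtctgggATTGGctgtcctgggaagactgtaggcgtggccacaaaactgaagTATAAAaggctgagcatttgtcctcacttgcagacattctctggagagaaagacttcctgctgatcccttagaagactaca
The Pmp22 sequence is at chr11:63128732-63129031 on the plus strand. The others are on the minus strand, Cited1 at chrX:102252132-102252431, Pla2g10 at chr16:13730435-13730734 and Usp17lb at chr7:104842534-104842833. TATAAA was found in the windows of Cited1 and Usp17lb, GGGCGG in those of Cited1 and Pla2g10, and CCAAT in those of Pmp22, Pla2g10 and Usp17lb. Of 32544 promoter windows of the same length, 13.6% held TATAAA, 35.9% GGGCGG and 37.4% CCAAT, so each of these matches is common. The windows held 3, 18, 7 and 1 CpG dinucleotides for Pmp22, Cited1, Pla2g10 and Usp17lb, against a median of 7 over all windows.

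Genes of the trophoblast, the outer lineage that builds the placenta, were higher at day 9 as a list. Of 20 measured members 17 were higher (85%, against 23.7% of all genes) and 15 of them held. Eomes was the 1 lower member (5%, against 21.8%). Over all genes 8.85% were higher and held, 7.72% were lower and held, and 1.16% had every day 9 cell above every day 6 cell. The counts of the lists below are set beside these same shares. The list median was 2.85 on the relative log2 scale, against 0 over all genes by construction, and it stayed between 2.57 and 3.26 when any 1 cell was left out. Every day 9 cell had a mean log2(CPM + 1) over the list (3.66 to 5.21) above that of every day 6 cell (0.94 to 2.24). Krt7, Krt8, Krt18, Krt19, Peg10, Hand1, Rhox6 and Rhox9, which are also members of other lists described here, take part in this count.

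Krt8, a keratin of simple epithelia, had 535, 980.5, 554, 691 and 1348 CPM at day 9, against 0.116, 27.2, 6.37, 98.2, 27.3 and 43.7 CPM at day 6. The ratio was 24.3-fold (23.1 to 25.6). Hand1, a transcription factor of trophoblast giant cells and early mesoderm, was uneven, with 0, 95.9, 3.01, 28.4 and 33.6 CPM at day 9, against 1.85 CPM in day 6 cell 6 and 0 CPM in the other day 6 cells. It was missing from day 9 cell 1, although its relative log2 ratio (4.57) held at 3.98. Rhox6, an X-linked homeobox gene expressed in placenta and germ cells, had 37.98, 135, 21.7, 106 and 155 CPM at day 9, against 26.1 CPM in day 6 cell 3 and 0 CPM in the rest. Krt7 had 243, 143, 124, 7.45 and 235 CPM at day 9, against 23.8 CPM in day 6 cell 4 and 0 CPM in the rest, so day 9 cell 4 lay inside the day 6 range.

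The keratins and surface epithelial genes gave 9 higher members of 12 measured (75%, against 23.7% of all genes). Of these 7 held, and the list median was 2.34. Sfn, an epithelial 14-3-3 protein, had 65.5, 252, 457, 172 and 278 CPM at day 9, against 8.32, 0, 6.37, 7.999, 12.2 and 25.8 CPM at day 6. Krt19 had 76.0, 467, 379, 444 and 338 CPM at day 9, against 0, 41.6, 2.33, 17.9, 45.0 and 61.2 CPM at day 6. All day 9 cells lay above all day 6 cells for Krt8, Krt18, Krt19, Sfn and Spint1. Krt42 went the other way, with summed levels of 2.78 CPM at day 9 and 26.8 CPM at day 6, and it held. The adhesion genes of epithelial junctions did not share this direction. Of 20 measured, 4 were higher and 4 lower (20% each, against 23.7% and 21.8% of all genes), and the median was -0.01. Dsp, which links keratins to desmosomes, had 74.1, 70.4, 0.126, 68.9 and 93.9 CPM at day 9, against at most 1.85 CPM in a day 6 cell. Day 9 cell 3 was alone among the day 9 cells in lacking it.

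**Figure D3:**
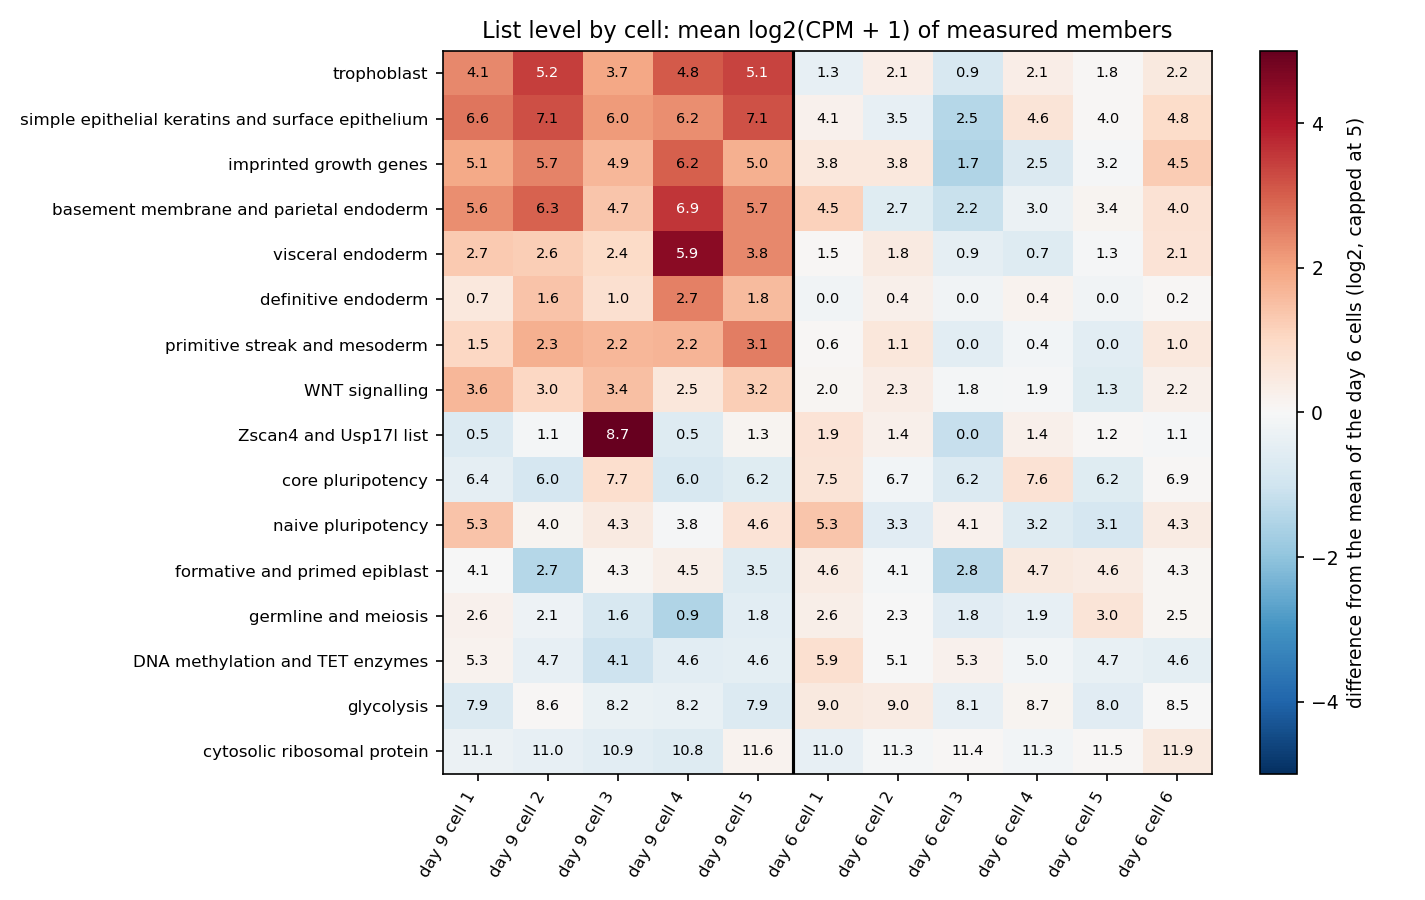
Mean log2(CPM + 1) over the measured members of 16 gene lists in each cell, printed in each field, with day 9 cells left of the line and day 6 cells right of it. The colour gives the difference from the mean of the day 6 cells, capped at 5 log2 units, and shows trophoblast and keratin genes high in all day 9 cells, visceral endoderm genes highest in cell 4 and the Zscan4 and Usp17l list high in cell 3.

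Visceral endoderm genes serve the nutrient-transporting layer around the early embryo. Of 18 measured members 16 were higher (88.9%, against 23.7% of all genes) and none was lower. The list median was 2.75, and 10 members held. Here 1 cell carried much of the size. Hnf4a, Apoa1, Apob, Amn and Rbp4 rested on day 9 cell 4 and Apom on day 9 cell 5, and without cell 4 the list median was 1.81. Day 9 cell 4 had a mean log2(CPM + 1) of 5.91 over the list, the highest, while the median of the day 9 cells was 2.69 and the day 6 cells had 0.74 to 2.08. Day 9 cell 4 also had the highest mitochondrially encoded share of gene reads with CT010467.1 left out. This share was 21.4%, against 5.50% to 10.9% in the other day 9 cells and 5.38% to 12.3% in day 6 cells. Its part in the result was not tested.

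Apoa1, an apolipoprotein secreted by visceral endoderm, had 149.8 CPM in day 9 cell 4, 7.73 CPM in cell 5 and 0 CPM in cells 1 to 3, against 0, 0, 0, 0.116, 3.10 and 1.71 CPM at day 6. Its relative log2 ratio was 4.25 with all cells and 0.90 without cell 4. Afp, a serum protein of visceral endoderm and liver, had 4.75, 0, 0, 90.5 and 2.58 CPM at day 9, against 0 CPM in all day 6 cells. Without cell 4 its relative log2 ratio was 1.00, at the limit of 2-fold. Sox7, an endoderm transcription factor, had 0, 14.6, 0, 70.9 and 25.2 CPM at day 9, against 0 CPM in all day 6 cells, and its ratio of 4.59 held at 3.57. Ttr, a carrier of thyroid hormone, had 0, 36.7, 180.3, 479 and 19.4 CPM at day 9, against 21.7 CPM in day 6 cell 6 and 0.462 CPM or less in the rest. Sox7 and Ttr were thus shared by 3 and 4 day 9 cells, while Apoa1 and Afp were nearly confined to cell 4.

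Genes of the definitive endoderm and of the primitive streak were higher at day 9 too, unevenly between cells. Of 7 measured definitive endoderm genes 5 were higher (71.4%, against 23.7% of all genes) and 3 held, with a median of 1.88. Foxa2, a pioneer factor of endoderm and node, had 0, 5.47, 0, 30.6 and 5.76 CPM at day 9, against 0 CPM in all day 6 cells. Of 9 measured primitive streak and mesoderm genes 7 were higher (77.8%, against 23.7%), 4 of which held, and Eomes was lower. Mixl1, a homeobox gene of the streak, had 2.85, 0.228, 5.27, 23.7 and 3.79 CPM at day 9, against 0 CPM in all day 6 cells. Its day 9 cells did not overlap with day 6, but the 0.228 CPM of cell 2 is 1 read, below that library's own 3-read level. Fgf8, a secreted signal of the streak, had 5.70, 41.5, 203, 29.8 and 21.4 CPM at day 9, against 8.23 CPM in day 6 cell 4, 0.809 CPM in cell 1 and 0 CPM in the rest.

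Basement membrane and parietal endoderm genes were higher for 9 of 13 members (69.2%, against 23.7% of all genes), with none lower. Of these 6 held, and the median was 1.38. Sparc, a matrix protein of parietal endoderm, had 1169, 2231, 1663, 1295 and 3485 CPM at day 9, against 469, 425, 4.97, 142, 530.2 and 535 CPM at day 6, a ratio of 6.00-fold (5.90 to 6.11). Col4a2, a chain of type IV collagen, had 93.0, 156, 0.126, 182 and 53.6 CPM at day 9, against at most 10.8 CPM in a day 6 cell. Its level in day 9 cell 3 was a single read, while Lama1, Lamb1 and Sparc were high in that cell.

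Among the cytoskeletal genes and targets of SRF and YAP, factors that respond to tension and cell shape, 8 of 19 were higher and 2 were lower. These shares were 42.1% and 10.5%, against 23.7% and 21.8% of all genes. The median was 0.47, and all 8 higher genes held. Amotl2, a YAP target and angiomotin, had 76.0, 125, 471, 80.2 and 79.3 CPM at day 9, against 4.16, 0.782, 0, 0, 0.135 and 18.7 CPM at day 6. S100a6, a calcium-binding protein, had 1639, 1268, 336, 279 and 907 CPM at day 9, against 11.2, 17.99, 196, 35.7, 36.1 and 35.0 CPM at day 6. The abundant actins were close to the median gene, with relative log2 ratios of 0.01 for Actb and -0.30 for Actg1.

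Imprinted growth genes were higher for 10 of 13 members (76.9%, against 23.7% of all genes), with none lower. Of these 6 held, and the median was 1.80. Besides H19 and Peg10, all day 9 cells lay above all day 6 cells for Peg3, with 421, 544, 530.0, 1300.2 and 408 CPM at day 9, against 145, 69.8, 4.97, 3.01, 255 and 223 CPM at day 6. Cdkn1c, a cell cycle inhibitor, overlapped, with 28.5, 69.0, 73.1, 11.5 and 80.3 CPM at day 9 and 0.116, 39.3, 4.82, 0, 36.9 and 13.1 CPM at day 6. Grb10, an adaptor that restrains growth, was mostly in day 9 cell 4, which had 88.7 CPM, while the other day 9 cells had 8.29 CPM or less and the day 6 cells 4.28 CPM or less. Its relative log2 ratio was 3.73 and still 1.39 at its weakest without 1 cell.

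Of the 6 measured genes of the Rhox cluster and related X-linked homeobox genes, 4 were higher (66.7%, against 23.7% of all genes). Of these 3 held, and the list median was 1.81. Another member was lower (16.7%, against 21.8% of all genes) but did not hold. Rhox9 had 6.65, 84.1, 0, 33.8 and 152 CPM at day 9, against 25.04 CPM in day 6 cell 4, 6.42 CPM in cell 6 and 0 CPM in the rest. Rhox5, the founding member of the cluster, did not follow, with 32.3, 43.1, 311, 688 and 239 CPM at day 9, against 155, 35.2, 1005, 8.35, 66.8 and 1042 CPM at day 6. Its relative log2 ratio was -0.26, inside 2-fold.

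Day 9 cell 3 stood apart through genes of the early cleavage-stage embryo. The Zscan4 and Usp17l families are expressed when the mouse embryonic genome is first activated and in a small, passing fraction of mESCs. All 8 measured members of the list, which also holds Tcstv3 and Tdpoz4, were higher at day 9, with a median of 5.02, yet 6 of them ended without day 9 cell 3 and the median without it was -0.96. The summed level of the list was 8189 CPM in day 9 cell 3, 4.75 to 29.4 CPM in the other day 9 cells and 0 to 176 CPM in the day 6 cells. The members within each family are near-identical copies, so reads may be divided between them in an uncertain way.

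Zscan4d had 2.85, 0.228, 3341, 0.169 and 1.97 CPM at day 9, against 23.1, 0.626, 0, 17.6, 0 and 1.71 CPM at day 6. Its relative log2 ratio was 6.68 with all cells and -2.29 without day 9 cell 3, so the remaining day 9 cells were lower than day 6. Zscan4c had 0.949, 0, 2263, 8.63 and 0.455 CPM at day 9, against 148, 27.4, 0, 7.65, 19.8 and 4.57 CPM at day 6, and went to -3.35 without that cell. Usp17lb had 0.949, 0.228, 521, 0 and 18.03 CPM at day 9, against 3 reads in day 6 cell 1 and none in the rest, and its relative log2 ratio of 7.17 was 2.78 without day 9 cell 3, with most of the remaining reads in cell 5. Day 9 cell 3 had the fewest genes at equal depth among the day 9 cells (8867), and the part of this in the result was not tested.

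The same cell decided the direction of several regulators outside these families. Sall4, a zinc finger factor of the pluripotency network, had 112, 49.7, 2315, 178 and 63.9 CPM at day 9, against 165, 306, 53.1, 450.1, 214 and 51.4 CPM at day 6. Its relative log2 ratio was 1.75 with all cells and -1.16 without day 9 cell 3. Dusp6, a phosphatase that feeds back on ERK, had 0.949, 1.14, 488, 3.89 and 1.97 CPM at day 9, against 1.73, 1.25, 91.5, 0, 33.7 and 5.56 CPM at day 6, and its ratio was 2.73 with all cells and -2.75 without that cell. Trim28, a corepressor of retroelements, went to -0.089, Bmp7, a secreted BMP ligand, to -1.42, and Rhox10, a homeobox gene, to -2.65 without day 9 cell 3, against 1.72, 2.79 and 1.42 with all cells. For these 5 genes the sign of the difference between the days was that of 1 cell.

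The other day 9 cells had genes of their own, as the plot of genes resting on 1 day 9 cell shows. Gphn, a scaffold protein of inhibitory synapses, had 3590 CPM in day 9 cell 1, 556 CPM in cell 2 and at most 68.6 CPM in the other day 9 cells, against 21.6 to 119 CPM in day 6 cells. Cd44, a hyaluronan receptor, had 492 CPM in day 9 cell 1 and at most 33.0 CPM in the other day 9 cells, against at most 53.7 CPM at day 6. Gpr39, a zinc-sensing receptor, had 184 CPM in day 9 cell 2, while no other cell of either day exceeded 3.798 CPM. Tgm5, a transglutaminase, had 138 CPM in day 9 cell 2 and at most 2.77 CPM in any other cell. Abcc2, an organic anion exporter, had 88.5 CPM in day 9 cell 4 and at most 1.90 CPM elsewhere, and Zfp111, a zinc finger gene, 104 CPM there and at most 1.21 CPM elsewhere. Cell 5 gave the fewest: Serpinb6c had 82.9 CPM in it, against at most 10.9 CPM in any other cell of either day.

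**Figure D4:**
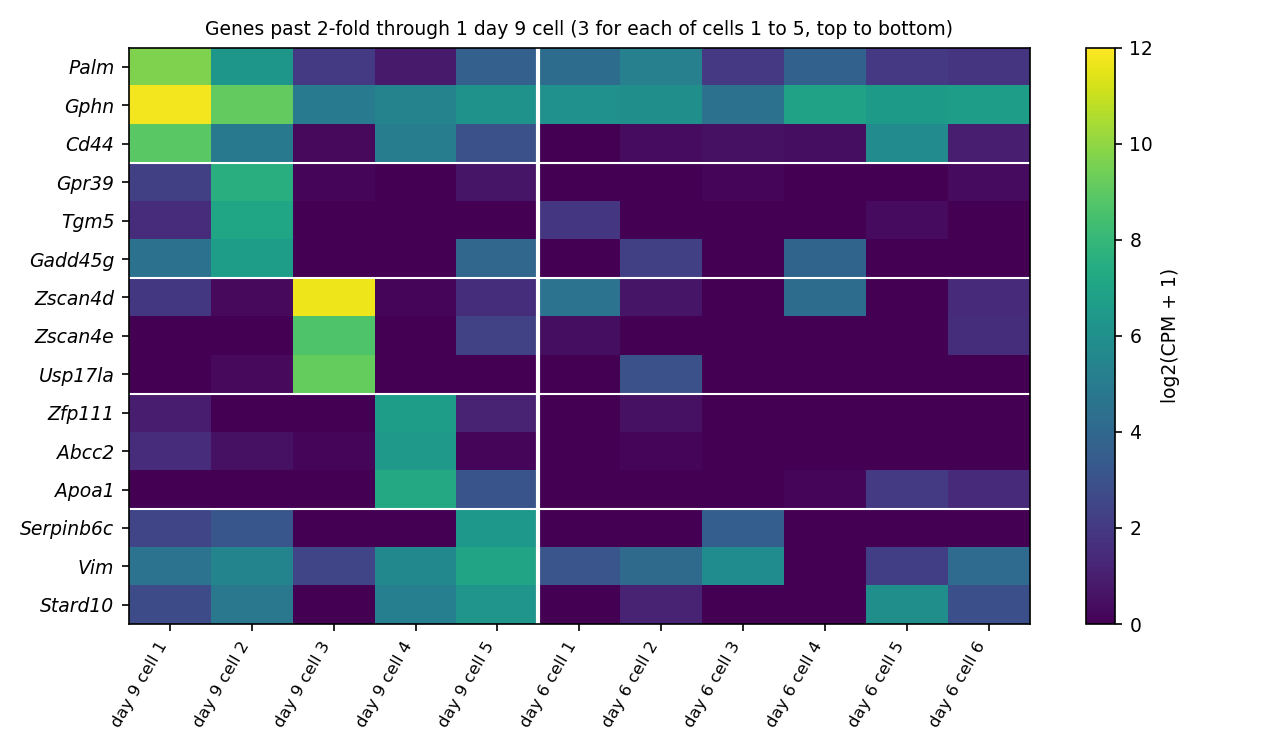
Level in log2(CPM + 1) of the 15 genes named because they were past 2-fold through 1 day 9 cell, 3 for each of day 9 cells 1 to 5 from top to bottom, in all 11 cells. Zscan4d had 3341 CPM in day 9 cell 3 and at most 23.1 CPM in any other cell.

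Counted by an absolute rule, 35, 30, 38, 7 and 1 genes had at least 20 CPM in day 9 cells 1 to 5 and under 1 CPM in each of the 10 other cells. The day 6 cells had 18, 10, 12, 15, 39 and 4 such genes, so genes seen in 1 cell were not particular to day 9. Holding past 2-fold without any 1 cell also does not mean an even spread. Mocos, an enzyme that activates molybdenum cofactor enzymes, had 2181 CPM in day 9 cell 1, 86.6 CPM in cell 2 and at most 3.01 CPM in the other day 9 cells, and Epb41l3, Pdgfrl, Grin2a and Cpsf4l had most of their level in day 9 cell 3 (357, 859, 214 and 228 CPM), although all 5 genes held.

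Some genes of the pluripotent and formative states were lower at day 9, and Pou5f1 and Nanog still had reads in every day 9 cell. Of 9 measured core pluripotency genes 4 were lower (44.4%, against 21.8% of all genes), of which Pou5f1 and Nanog held. The 2 higher genes (22.2%, against 23.7%) were Sall4 and Trim28, both through day 9 cell 3. The list median was -0.998. Pou5f1, on chromosome 17 at 35506032 to 35510777, had 172, 189.8, 399, 306 and 592 CPM at day 9, against 1473, 1177, 261, 762, 464 and 1054 CPM at day 6, a ratio of 0.433 (0.423 to 0.442). Nanog had 91.1, 38.1, 59.1, 22.7 and 28.3 CPM at day 9, against 139, 112, 61.4, 122, 43.6 and 53.2 CPM at day 6. The days overlapped for both genes. Day 9 cell 5 had more Pou5f1 than day 6 cells 3 and 5, and day 9 cell 1 more Nanog than day 6 cells 3, 5 and 6.

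Otx2, a homeobox factor of the formative epiblast, was the most reduced of the formative genes. It had 22.8, 0, 0, 17.3 and 2.58 CPM at day 9, against 160.4, 77.6, 12.3, 353, 394 and 72.5 CPM at day 6. Its relative log2 ratio was -4.98 and still -4.49 at its weakest without 1 cell. In all, 6 of 12 formative genes were lower (50%, against 21.8% of all genes) and 5 of these held, while 2 were higher (16.7%, against 23.7%). Zic2 and Cdh2 were higher in all day 9 cells. Dnmt3a, a de novo DNA methyltransferase, had 149, 103, 375, 185 and 49.9 CPM at day 9, against 247, 350.2, 134, 1469, 844 and 208 CPM at day 6. Among the 11 DNA methylation and TET genes 5 were lower (45.5%, against 21.8% of all genes), none was higher, and 2 held. Dnmt3l, the partner of the de novo enzymes, had a ratio of -1.78 but only -0.34 without day 6 cell 1, which had 1428 CPM.

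Of 16 naive genes 5 were lower (31.2%, against 21.8% of all genes) and 3 were higher (18.8%, against 23.7%), so the shares were near those of all genes, and the median was -0.57. Esrrb, a nuclear receptor of the naive state, had 104, 121, 12.9, 21.2 and 33.3 CPM at day 9, against 88.6, 81.6, 79.6, 1.51, 215 and 27.4 CPM at day 6. Zfp42, a classical mESC marker, had summed levels of 163 CPM at day 9 and 162 CPM at day 6. Klf5 was higher (1.52) but only 0.60 at its weakest without 1 cell.

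Germline and meiosis genes were lower for 9 of 14 members (64.3%, against 21.8% of all genes) and higher for 3 (21.4%, against 23.7%). The median was -1.57, and 6 of the lower genes held. Hormad1, a meiotic chromosome axis protein, had 16.1, 3.87, 0.377, 0.169 and 0.455 CPM at day 9, against 39.2, 5.63, 21.3, 60.4, 13.5 and 10.3 CPM at day 6. Tdrd12, of the piRNA pathway that silences transposons, had 0, 3.42, 3.14, 0 and 23.6 CPM at day 9, against 22.9, 44.4, 209, 43.1, 42.0 and 58.8 CPM at day 6. Only the highest day 9 cell reached into the day 6 range for Tdrd12. Dppa3, which protects maternal methylation marks in the early embryo and is also in the naive list, was higher, with 24.7, 70.9, 155, 14.7 and 29.7 CPM at day 9, against 0.231, 11.9, 68.1, 0.116, 0.404 and 4.14 CPM at day 6.

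Other large reductions were in genes of mixed function. Ubash3a, a suppressor of receptor signalling known from T cells, had 5.70, 0.911, 5.27, 0 and 0.152 CPM at day 9, against 234, 97.4, 11.8, 0, 132 and 67.9 CPM at day 6. Wasf3, an actin regulator, had 19.9, 3.19, 0, 0.508 and 2.73 CPM at day 9, against 73.2, 112, 3.42, 96.0, 112 and 98.0 CPM at day 6. For both genes 1 day 6 cell was within the day 9 range. What was left at day 9 was highest in cell 1, the cell with the most genes at equal depth and the highest CT010467.1 share. The part of these in the result was not tested.

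Signalling genes gave smaller list differences. In the Nodal pathway, which maintains the epiblast and patterns the streak, 5 of 14 genes were lower (35.7%) and 4 higher (28.6%), against 21.8% and 23.7% of all genes, with a median of -0.60. The ligand Nodal had 37.0, 3.87, 0.126, 0.338 and 0.152 CPM at day 9, against 4.74, 14.4, 155, 1.51, 16.7 and 0.285 CPM at day 6, so 1 day 6 cell held most of its reads. Its cofactor Foxh1 was lower (-3.24) and its processing protease Furin higher (4.18), the second in all day 9 cells. In the BMP list 5 of 14 were higher (35.7%) and 1 lower (7.14%). Bmp4, a ligand that promotes extraembryonic and mesodermal fates, had 16.1, 63.6, 127, 34.4 and 38.3 CPM at day 9, against 42.6 CPM in day 6 cell 1, 14.98 CPM in cell 6 and 0 CPM in the rest.

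In the FGF and ERK list 7 of 16 were higher (43.8%, against 23.7% of all genes) and 4 were lower (25%, against 21.8%). The list median was 0.54, and -0.14 without day 9 cell 4. Fgf4, the ligand made by pluripotent cells, had 25.6, 1.60, 4.14, 0 and 5.61 CPM at day 9, against 87.6, 0, 22.7, 4.75, 143 and 51.8 CPM at day 6. Its receptor Fgfr2 had 375, 278, 21.7, 88.5 and 19.9 CPM at day 9, against 8.45 to 44.7 CPM at day 6, with the highest values in day 9 cells 1 and 2. In the WNT list 8 of 16 were higher (50%, against 23.7% of all genes) and 2 lower (12.5%, against 21.8%). Of the higher genes 5 held and 3 rested on a day 9 cell. The list median was 0.96, and 0.30 without day 9 cell 3. In the LIF and STAT3 list 5 of 12 were higher (41.7%, against 23.7%), and each of those 5 rested on a day 9 cell. The 1 lower member (8.33%, against 21.8%) held.

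Genes of basic cell functions served as a comparison within the same cells. None of 21 ribosomal protein genes and none of 19 proteasome genes was past 2-fold in either direction, with list medians of -0.43 and -0.26. Glycolysis genes had a median of -0.72, with 3 of 15 lower (20%, against 21.8% of all genes) and 1 higher (6.67%, against 23.7%). Eno1, a glycolytic enzyme, had 1068, 2508, 3253, 1842 and 3138 CPM at day 9, against 6296, 11191, 2380.0, 5770.4, 4669.5 and 8080.2 CPM at day 6. The higher one was Slc2a3, a glucose transporter, with 229.8, 533, 985, 988 and 681 CPM at day 9, against 317, 223, 235, 83.6, 203 and 275 CPM at day 6. Of 16 genes of the integrated stress response, which includes amino acid synthesis, 7 were lower (43.8%, against 21.8% of all genes) and 1 was higher (6.25%, against 23.7%). Of the lower ones 3 held. Psat1, of serine synthesis, had 74.1, 78.8, 83.1, 14.0 and 39.5 CPM at day 9, against 352, 937, 63.2, 380.0, 134 and 230.1 CPM at day 6. Feeder fibroblast genes had a median of 0.07, with 2 of 9 higher (22.2%, against 23.7% of all genes) and 1 lower (11.1%, against 21.8%). Their summed level was 74.2 to 134 CPM in day 9 cells and 36.6 to 213 CPM in day 6 cells.

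**Figure D5:**
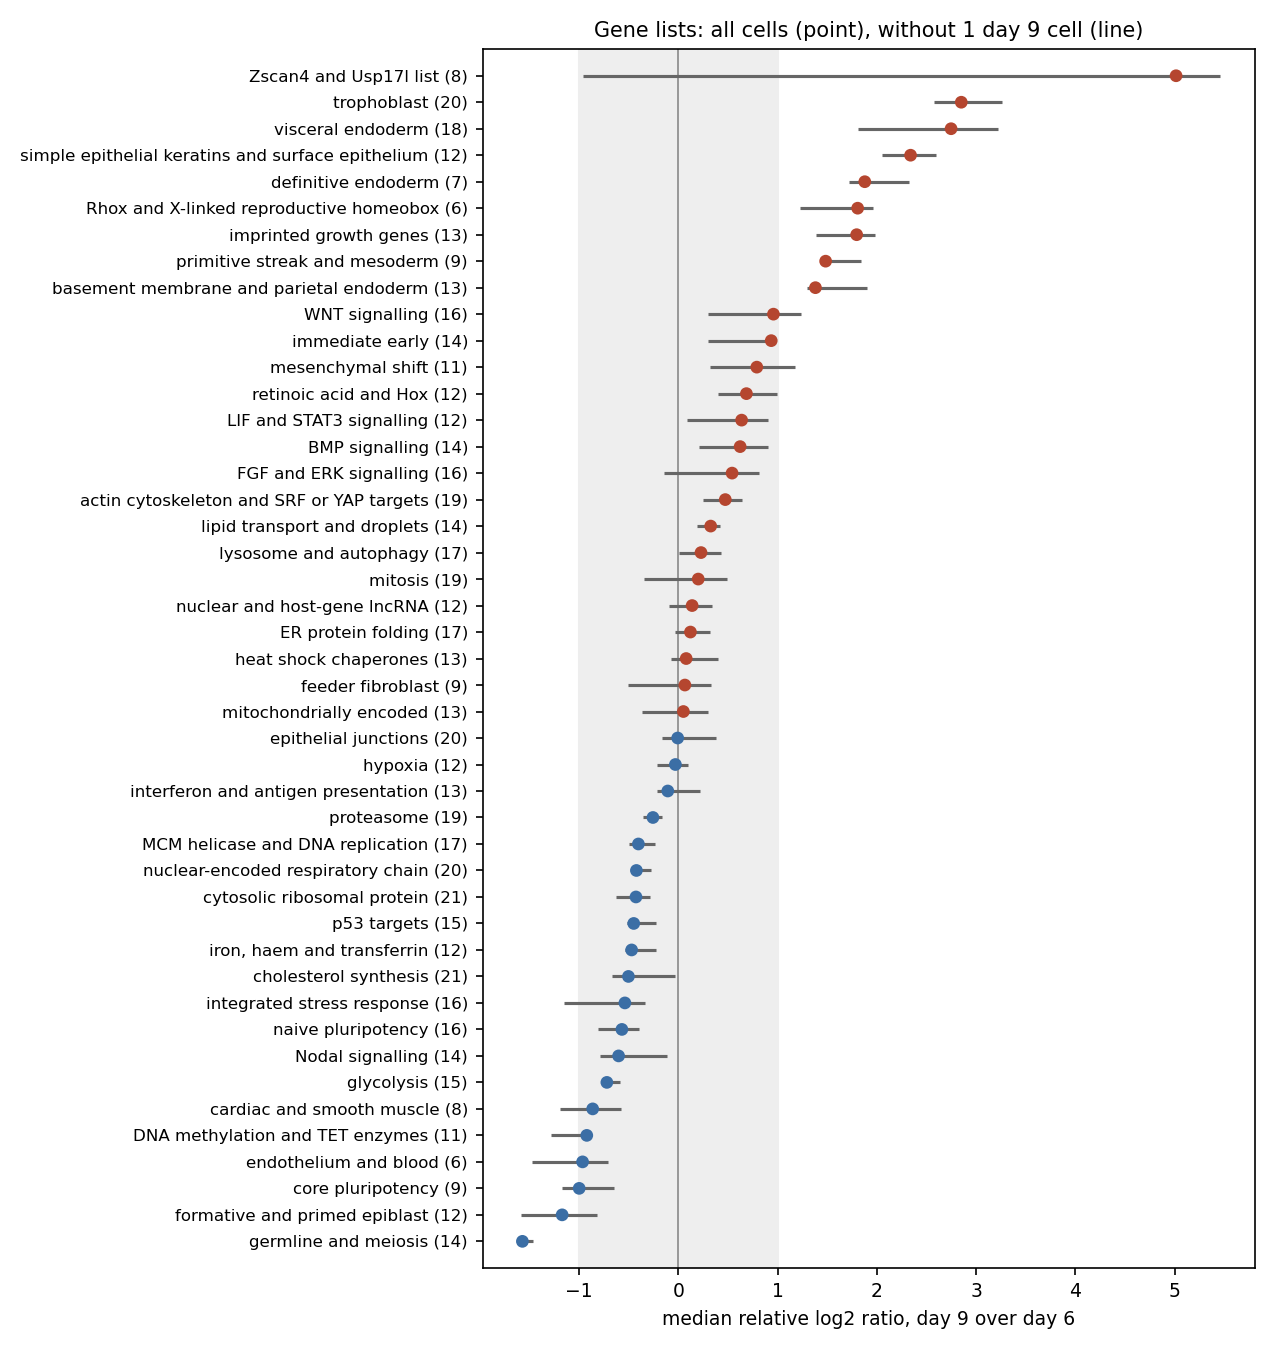
Median relative log2 ratio of day 9 over day 6 (points, red above 0 and blue below) for the 45 gene lists with at least 5 measured members, with the number of measured members in parentheses, the range when any 1 day 9 cell was left out (lines) and the region inside 2-fold (grey). The Zscan4 and Usp17l list ranged from -0.96 to 5.45, whereas the trophoblast list stayed between 2.57 and 3.26.

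Set beside the day 0 cells, taken before LIF and feeders were withdrawn, and the day 3 cells, the differences were of several kinds. Otx2 had summed levels of 0.0409 CPM at day 0, 9.81 CPM at day 3, 189 CPM at day 6 and 5.52 CPM at day 9, a peak at day 6. Lama1 had 52.9, 21.3, 4.62 and 304 CPM, and Amotl2 102, 7.83, 3.88 and 208 CPM at days 0, 3, 6 and 9, so day 6 was the lowest day for both in summed reads. For Amotl2 the cells overlapped, with 0 to 42.9 CPM at day 3 and 0 to 18.7 CPM at day 6. S100a6 had 575, 56.2, 51.5 and 679 CPM and Sparc 1641, 612, 353 and 2119 CPM at days 0, 3, 6 and 9, so that day 9 was closer to day 0 than to the days between. The day 0 cells ranged from 160.0 to 1879 CPM for S100a6 and from 226 to 2675 CPM for Sparc. Krt8 had 24.3, 41.2, 35.3 and 859 CPM, H19 10.4, 14.7, 19.06 and 923 CPM, and Pmp22 0.246, 0.878, 0 and 128 CPM on these days. For these 3 genes day 9 was the only day of the 4 with a high level.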

How the data were processed

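Single-cell RNA libraries of 5 day 9 and 6 day 6 cells were used, and the DNA libraries were not analysed here. The values are read counts per gene as deposited by the authors, and rows that name no gene were removed. Per the submitters' processing notes, the tools were Trim Galore 0.6.7, Bismark and Bowtie2 2.2.9 with mm10 and hg38. The RNA aligner, the counter and the use of strand were not given in the sources used here. There are no molecular identifiers.

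Reads were summed per day over cells, CT010467.1 was left out, and CPM, log2((CPM + 1)/(CPM + 1)) and the subtraction of the median were computed for genes reaching 20 reads and 2 cells. Exact Poisson intervals for levels and exact conditional binomial intervals for ratios (95%) cover counting error only. Where day 6 had 0 reads, 3 reads over the day set the lower bound. 3 reads over the day correspond to 0.116 CPM at day 9 and 0.0673 CPM at day 6.

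No count model was fitted between days, because each day counts as 1 sample. Pairs of cells were compared for duplicates (lowest chi-square per degree of freedom 108, so no pair agreed within sampling noise). No doublet caller was run, since each library is 1 cell. Of 55401 gene IDs, 55141 were paired with a symbol. Gene coordinates and promoters are RefSeq's for GRCm38.p6.

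Genes were named by rule: the 12 highest and 12 lowest ratios that held, of genes reaching 20 CPM on 1 of the days, 3 genes for each day 9 cell that rested on it, 6 without overlap in each direction, and, per list, up to 5 members. Further list members are named outside these rules, for example where they went the other way or rested on 1 cell. Outside the lists, mitochondrial genes, genes of ribosomal proteins and names of pseudogenes, clones or predictions were passed over. An item named by these rules is not reported here. The 46 lists (684 entries, some genes in several lists) and the comparison were chosen with earlier results of these data known. Alternatives were other totals, means or medians of CPM over cells, TMM and DESeq2 size factors, a pseudocount of 0.1 or 10 CPM, a minimum of 1 or 200 reads, and leaving out each cell. The ratios were tested on simulated data. Python 3.11.15, numpy 2.4.6, pandas 2.3.3, scipy 1.17.1, matplotlib 3.10.9, R 4.3.3, edgeR 4.0.16 and DESeq2 1.42.0 were used, the last 2 for scaling factors only.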

Additional observations from a re-analysis of the deposited data

Results flagged for a closer look

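In 38 of the 313 groups of cells examined (12.1%), 1 cell lay apart from the rest of its day by Dixon's gap criterion. Chance alone flags about 1 in 20 groups, but the 2 shares cannot be compared, because some of the genes (among them Zscan4d, Zscan4e, Usp17la, Tgm5, Zfp111 and Abcc2) had been named for resting on 1 cell. No explanation was tested for any of these cells.

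Day 9 cell 3 stood apart in several lists and genes. Its mean log2(CPM + 1) was 8.70 over the Zscan4 and Usp17l list, 7.70 over the core pluripotency list and 3.69 over the epithelial junction list. It stood high in Zscan4d (3341 CPM), Zscan4f (1244 CPM), Usp17la (580.1 CPM), Dusp6 (488 CPM), Amotl2 (471 CPM), Zscan4e (415 CPM) and Rhox10 (58.5 CPM). The same cell stood low in Col4a2 (0.126 CPM), Dsp (0.126 CPM) and Shmt2 (0.251 CPM).

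Day 9 cell 4 stood apart in Peg3 (1300.2 CPM), Zfp111 (104 CPM) and Abcc2 (88.5 CPM), which were high, and in Krt7 (7.45 CPM) and Zyx (4.06 CPM), which were low. Day 9 cell 2 was high in Tgm5 (138 CPM). Day 9 cell 1 was low in Krt19 (76.0 CPM) and in the proteasome list, with a mean log2(CPM + 1) of 7.20. Day 9 cell 5 was low in Dnmt3l (48.3 CPM).

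Among day 6 cells, cell 3 was low in the formative list (2.84), the integrated stress response list (2.85), the endoplasmic reticulum folding list (3.84) and the lysosome list (4.44), all as mean log2(CPM + 1), and in Wasf3 (3.42 CPM), Sparc (4.97 CPM) and Shmt2 (19.11 CPM), while Rhox6 was high in it (26.1 CPM). Day 6 cell 1 had the most gene reads (16367029) and the highest level of the LIF and STAT3 list (3.33). Krt7 was high (23.8 CPM) and Slc2a3 low (83.6 CPM) in day 6 cell 4, Cd44 was high (53.7 CPM) in day 6 cell 5, Lef1 was at 0 CPM in day 6 cell 2, and in day 6 cell 6 Dnmt1 was low (29.1 CPM) and Ttr high (21.7 CPM).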

How the results depend on the processing

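Of 88 counts of genes recomputed without 1 cell, 77 stayed within 1.5 times the value reported, and so did 75 of 88 under other settings. Some of the 75 could not have moved. The counts without overlap (186 and 33) depend only on the order of cells by CPM. They are therefore fixed when cells are averaged, the median gene is not subtracted or the pseudocount is changed. Of 495 list medians without 1 cell, 486 moved by less than the spread between cells, 8 moved by more and 1 was counted as changing sign. A change of sign was counted only where the reported value was at least 1 in size. Smaller medians that crossed 0 are therefore among the others, such as that of the FGF and ERK list, 0.54 with all cells and -0.14 without day 9 cell 4. Under other settings 464 of 491 list medians moved by less than the spread between cells, 27 by more, and none was counted as changing sign. Single genes were judged against the counting error of their summed reads, so their numbers cannot be set beside those of the lists. Of 1496 values of named genes without 1 cell, 776 moved by no more than this error and 710 by more. Another 10 changed sign, counted by the same rule as for the lists. Under other settings the numbers were 897, 589 and 10.

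With the median of CPM over cells, 2123 genes were lower at day 9, 2161 higher genes held and 1354 higher genes ended without some 1 day 9 cell. The split of the genes past 2-fold was then 62.9% higher, against 52.0% with summed reads. With a pseudocount of 10 CPM, 1466 genes were higher and 1222 lower, of which 402 and 356 held and 1058 and 377 ended without some 1 day 9 cell. With a pseudocount of 0.1 CPM, 2455 higher genes held. With a minimum of 200 reads, 1425 higher genes ended without some 1 day 9 cell. Genes with every day 9 cell below every day 6 cell numbered 58 with TMM and 95 with DESeq2 size factors. Those with every day 9 cell above every day 6 cell numbered 162 and 130 under the same settings. The median gene lay at 0.19 with CT010467.1 in the totals, 0.22 with the mean of CPM and -0.12 with DESeq2 factors, and ratios were taken relative to it. Leaving out 1 cell gave 233 to 434 genes with no overlap above day 6, the most without day 9 cell 3, and 41 to 90 below it, the most without day 6 cell 3; fewer cells make such a separation easier.

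The sign of the Zscan4 and Usp17l list median rested on day 9 cell 3 (-0.96 to 5.60 over all cells left out). With a median of CPM across cells, in which 1 high cell has little weight, the ratio was -3.04 for Zscan4c, -0.88 for Sall4, -0.77 for Dusp6, -0.33 for Gphn, -0.32 for Bmp7 and -0.21 for Apoa1, and -0.13 for each of Rhox10, Tgm5, Usp17la and Zscan4e. Each of these ratios had the median gene of that setting, 0.127, subtracted. Tgm5, Usp17la and Zscan4e had a median of 0 CPM on both days, so their -0.13 is this shift and not a difference between the days. Over the cells left out, the ratio ran from -3.35 to 5.57 for Zscan4c, -2.75 to 3.97 for Dusp6, -2.65 to 3.28 for Rhox10, -2.29 to 7.28 for Zscan4d and -1.42 to 4.08 for Bmp7. It ran from -1.16 to 2.16 for Sall4, -0.99 to 7.31 for Usp17la, -0.93 to 6.74 for Zscan4f and -0.089 to 2.13 for Trim28, each lowest without day 9 cell 3, and from -0.52 (without day 9 cell 2) to 4.38 for Tgm5. Depth limited the single cells most in day 9 cell 1, where 3 reads are 2.85 CPM, against 0.377 CPM in the deepest day 9 cell. No paired analysis was possible because the comparison of days comes from no test and the cell numbers of the days only name the cells.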

Other observations

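Of 13 measured heat shock chaperone genes 3 were higher (23.1%, against 23.7% of all genes) and 1 was lower (7.69%, against 21.8%) at day 9, with a median of 0.08. Among its members, Hspb1, a small chaperone that binds actin and keratin filaments, had 3164, 3529, 3029, 2624 and 5139 CPM at day 9, against 1884, 477, 1126, 453, 1346 and 1685 CPM at day 6, without overlap. Cryab, a related small chaperone, had 174, 511, 111, 133 and 235 CPM at day 9, against 149.8 CPM in day 6 cell 5 and 6.47 CPM or less in the rest, so only day 6 cell 5 reached into the day 9 range. In the list of retinoic acid and Hox genes 4 of 12 were higher and 4 lower (33.3% each, against 23.7% and 21.8% of all genes). Cyp26a1, which degrades retinoic acid, had 0, 0, 17.96, 85.0 and 26.5 CPM at day 9, against 4.99 CPM in day 6 cell 6 and 0 CPM in the rest, while Crabp1, which binds retinoic acid, had 29.4, 57.0, 0.126, 1.52 and 1.52 CPM at day 9, against 7.51 to 149 CPM at day 6.

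Genes of DNA replication and mitosis had list medians near that of all genes, at -0.40 over 17 and 0.20 over 19 measured members. Mcm5, a subunit of the replicative helicase, had 51.3, 27.8, 1.76, 3.38 and 53.2 CPM at day 9, against 91.3, 110.1, 36.2, 42.5, 150.5 and 31.7 CPM at day 6. Cells 3 and 4 of day 9 were the low ones. Slc40a1, the cellular iron exporter, had 0.949, 58.6, 371, 61.4 and 19.2 CPM at day 9, against at most 6.28 CPM in a day 6 cell. Hsd17b14, a steroid dehydrogenase, had 43.7, 12.3, 0.377, 0.169 and 10.8 CPM at day 9, against 123, 25.5, 168, 323, 249.7 and 135 CPM at day 6. Malat1, a nuclear noncoding RNA, had 1377, 9881, 6108, 3818 and 10106 CPM at day 9, against 1329.5 to 6920.1 CPM at day 6, and its relative log2 ratio of 1.10 was 0.87 at its weakest without 1 cell.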
